A study of Mus musculus with 2 samples.

Results

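The calcium/calmodulin-dependent kinases measured here were the products of 10 genes, namely Camk1, Camk1d, Camk1g, Camk2a, Camk2b, Camk2d, Camk2g, Camk4, Camkk1 and Camkk2. Their probes were found by the gene symbol in the array annotation, and this gave 20 of the 41174 probes of the array and 10 of the 19526 gene names matched to a reference gene table. A further 3 probes carried no symbol but were described as a product of Camk1d, Camk2b or Camk4, and they were kept apart from the counts unless stated. The genes were selected on the log2 ratios of these same arrays, in which probes of Camk2a and of Camk2b differed in direction, so all their values are a description. The data were 2 two-colour Agilent arrays of brain RNA from female C57BL/6J dams aged 8 weeks on the day of delivery. On both arrays the TDAG51 knockout (TDAG51-/-) sample was labelled with Cy3. The Cy5 channel held wild-type (TDAG51+/+) brain on the first array. On the second it held brain of TDAG51-/- dams with a TDAG51 transgene (TDAG51-/-Tg2). The transgene of this single line was driven by the BAI1-AP4 promoter, which is active mainly in the cortex and hippocampus, and the TDAG51 gene itself was deleted in these dams as in the TDAG51-/- dams.

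Calcium entering a neuron binds calmodulin, and calcium/calmodulin switches on this group of serine/threonine kinases. CaM kinase kinases (Camkk1, Camkk2) phosphorylate CaM kinase I (Camk1, Camk1d, Camk1g) and CaM kinase IV (Camk4), while CaM kinase II (Camk2a, Camk2b, Camk2d, Camk2g) assembles into a holoenzyme that phosphorylates itself. In the forebrain, CaM kinase II alpha and beta are abundant at synapses and are known for their role in long-term potentiation, and CaM kinase IV is a nuclear kinase that phosphorylates CREB. Camk4 is also known for its high level in cerebellar granule cells.

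Each probe is a 60-base oligonucleotide, and the probes of a gene sit at different places along it. The 3 probes printed below are the Camk1d and Camk2d probes split over exons and the Camk2b probe for ENSMUST00000019133. Probes of Camk2a and Camk4 are not printed. The Camk1d probe lies on chr2:5218854-5220590 and the Camk2d probe on chr3:126672439-126676111 of mm7, and both are split over exons, since their genomic spans of 1737 and 3673 bases exceed the 60 bases of the probe. The Camk2b probe lies on chr11:5929884-5929943. The Camk1d and Camk2b probes are on the minus strand and the Camk2d probe is on the plus strand. Which exon each one covers was not analysed here. All letters are in lower case, as no part of a probe is singled out.
Camk1d (A_52_P131353): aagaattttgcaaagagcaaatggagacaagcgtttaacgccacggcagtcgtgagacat
Camk2b (A_51_P376776): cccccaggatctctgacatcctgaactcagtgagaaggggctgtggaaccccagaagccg
Camk2d (A_51_P510817): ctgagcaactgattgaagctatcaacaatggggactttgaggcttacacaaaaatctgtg

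Each comparison was made on 1 array without a dye swap, so neither the spread between dams nor a dye effect of a probe was measured, and no test across animals was possible. Every kinase probe was printed 1 time on each array. For the probes printed at least 5 times, the log2 ratio varied among spots with a median SD of 0.057 and 0.060 (first and second array), which covers spot error alone. The TDAG51-/- channels of both arrays, scaled to each other, differed with a robust SD of 0.14 on the log2 scale over 33254 probes, and 0.271% of these were 2-fold apart. The labels do not say whether both channels held the same RNA. TDAG51 itself (Phlda1) read 350 in the TDAG51-/- channel and 7283 in the TDAG51+/+ channel, 17.3-fold lower. On the second array Phlda1 read 44.1 in the TDAG51-/- and 50.5 in the TDAG51-/-Tg2 channel, neither well above background, and whether this probe lies within the transgene is not given in the sources used here. The alpha globin gene Hba-a1 also differed between the TDAG51-/- channels, with 2259 on the first and 35470 on the second.

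On each array 19 of the 20 kinase probes had at least 1 channel well above background. The exception was the Camk2d probe for AK032524, which read 45.9 and 45.8 with TDAG51+/+, and 44.5 and 42.6 with TDAG51-/-Tg2. At a 2-fold threshold, 1 kinase probe was higher and 2 were lower in TDAG51-/- than in TDAG51+/+ brain, against a background of 4.9% of all probes higher, 4.42% lower and 9.32% either way. In the comparison with TDAG51-/-Tg2, 0 probes were higher and 1 was lower, against 4.72%, 3.86% and, either way, 8.58% of all probes. These few probes were Camk4 (higher than in TDAG51+/+) and Camk1d (lower in both comparisons). Of the 19 probes, 8 were above 0 on the log2 scale in the first comparison and 9 in the second, where 50.9% and 51.2% of all probes were above 0. The 8 include the Camk2b probe for NM_007595, which had a saturated control spot and for which no fold is given. Other ways of processing turned the sign of 2 more of the 8 and of 4 of the 9. The median log2 ratio of the kinase probes was -0.27 and -0.08, beside 0.01 over all probes in each comparison. The comparisons share the TDAG51-/- genotype, so each one's values are given side by side and are not independent.

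**Figure D1:**
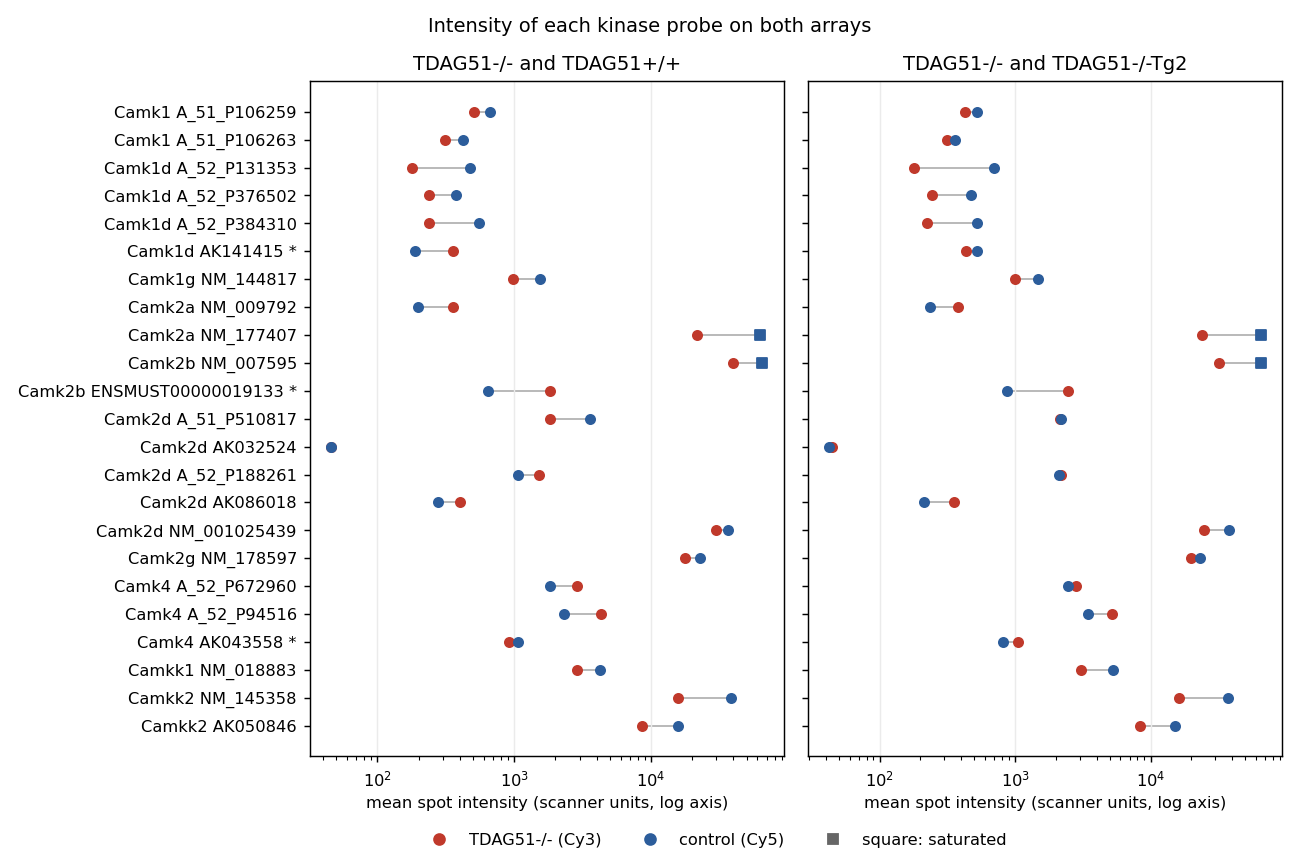
Mean spot intensity, on a log axis, of each of the 23 kinase probes in the TDAG51-/- channel (red) and the control channel (blue), on the array with TDAG51+/+ (left) and on that with TDAG51-/-Tg2 (right). Squares are saturated spots and asterisks mark the 3 probes named by their product alone; the control spots of Camk2a NM_177407 and Camk2b NM_007595 are saturated on both arrays.

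The CaM kinase kinases, which stand at the head of the cascade, were lower in TDAG51-/- brain at every probe. Camkk1 read 2863 in TDAG51-/- and 4204 in TDAG51+/+ brain on the first array, and 3054 in TDAG51-/- and 5274 in TDAG51-/-Tg2 brain on the second. After normalization the Camkk1 ratios on the log2 scale were -0.27 (TDAG51+/+) and -0.47 (TDAG51-/-Tg2). Camkk2 had a pair of probes 1830 bases apart. The probe for NM_145358 read 15677 against 38316 and, with TDAG51-/-Tg2, 16131 against 37490, and its log2 ratio was -0.68 and -0.60. The probe for AK050846 read 8540 against 15809 and 8394 against 15105, and its log2 ratio was -0.39 and -0.35. Thus both Camkk2 probes were below 0 in both comparisons, by less than 2-fold, and they differed from each other by 0.29 and 0.25 on the log2 scale.

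The Camkk2 values depended on how the dyes were balanced. The log2 ratio of a bright probe is raised by the loess curve, which follows the ratio along intensity, compared with centring each array on its median. With the probes in 10 groups by brightness, the median shift in the brightest group was 0.42 and 0.41 (first and second array), and in the dimmest it was -0.08 and -0.06. With median centring, the Camkk2 probe for NM_145358 stood at -1.14 and -1.03, past the 2-fold threshold.

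**Figure D2:**
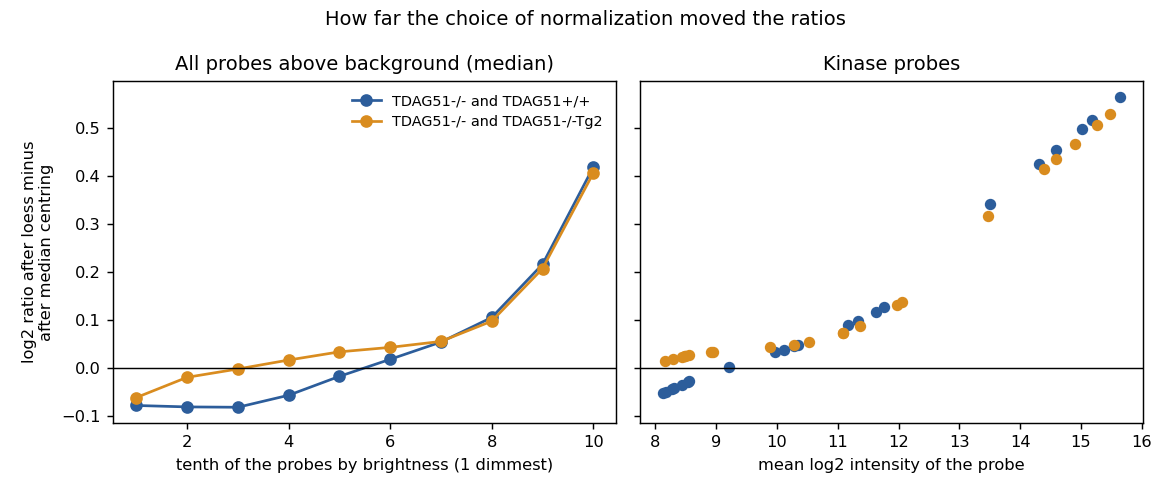
Difference between the log2 ratio after loess and after median centring, as the median in each of 10 groups of all probes by brightness (left) and for each kinase probe against its mean log2 intensity (right), on the first (blue) and second (orange) array. The brightest group was raised by 0.42 and 0.41, and the bright kinase probes lie in the same range or above it.

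CaM kinase I, a substrate of the CaM kinase kinases, is encoded by several genes, and after loess Camk1d (CaM kinase I delta) had the lowest measured ratios of the kinase probes. The ratio of the Camk2a probe for NM_177407 is a bound and could be lower, and with median centring it stood at -1.38 against TDAG51+/+, below the -1.20 of Camk1d. The exon-spanning Camk1d probe A_52_P131353 read 178 in TDAG51-/- and 475 in TDAG51+/+ brain, and 181 in TDAG51-/- and 700 in TDAG51-/-Tg2 brain. It was 2.37-fold lower than in TDAG51+/+ (log2 ratio -1.24) and 3.17-fold lower than in TDAG51-/-Tg2 (-1.67). Both TDAG51-/- spots were thus well below both control spots, and they differed from each other by 0.03 on the log2 scale once the arrays were scaled.

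Further along the same transcript, the Camk1d probe A_52_P384310 read 237 against 552 and then 225 against 528, a log2 ratio of -1.08 and -0.99. The most distal probe, A_52_P376502, read 239 against 376 and 242 against 476, a log2 ratio of -0.52 and -0.70. All 3 probes of NM_177343 were therefore lower in TDAG51-/- brain in both comparisons, and their spread was 0.73 and 0.96 on the log2 scale. The 3 probes do not overlap, but they report on 1 transcript and are not replicates.

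A clone from embryonic spinal cord described as CaM kinase ID (AK141415) has a probe on chr2:5480206-5480265, 259675 bases upstream of A_52_P131353 on the same strand. This probe read 358 in TDAG51-/- and 188 in TDAG51+/+ brain, a log2 ratio of 0.90, and 437 in TDAG51-/- and 522 in TDAG51-/-Tg2 brain, a log2 ratio of -0.04. It did not follow the symbol-matched Camk1d probes in either comparison. In Cy5, scaled between the arrays, it was 1.24 higher in TDAG51-/-Tg2 than in TDAG51+/+ on the log2 scale. Its TDAG51-/- channels differed by 0.31.

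The other CaM kinase I genes had smaller ratios. Camk1 (CaM kinase I alpha) had a pair of probes 840 bases apart. The probe A_51_P106259 read 508 in TDAG51-/- against 669 in TDAG51+/+ brain and 425 against 525 in TDAG51-/-Tg2 brain, a log2 ratio of -0.25 and -0.08. The probe A_51_P106263 read 311 against 423 and 312 against 358, a log2 ratio of -0.29 and 0.01. The Camk1 probes lay within 0.08 of each other in each comparison. Camk1g (CaM kinase I gamma), with 1 probe, read 977 against 1553 and 1003 against 1484, a log2 ratio of -0.47 and -0.33.

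CaM kinase IV, the nuclear kinase, had the highest symbol-matched ratio against TDAG51+/+, while against TDAG51-/-Tg2 the Camk2d probe for AK086018 (0.89) stood as high. The Camk4 probe A_52_P94516 read 4293 in TDAG51-/- and 2317 in TDAG51+/+ brain, and 5154 in TDAG51-/- and 3481 in TDAG51-/-Tg2 brain. It was 2.22-fold higher than in TDAG51+/+ (log2 ratio 1.15) and 1.84-fold higher than in TDAG51-/-Tg2 (0.88). The second probe of NM_009793, 724 bases upstream, read 2879 against 1822 and 2798 against 2444, a log2 ratio of 0.89 and 0.47. Both Camk4 probes were higher in TDAG51-/- brain in both comparisons, and they were 0.26 and 0.41 apart. Among symbol-matched probes short of 2-fold on the first array, this second Camk4 probe had the highest ratio.

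A neonatal cortex clone inferred to be CaM kinase IV (AK043558) has its probe on the strand opposite to the Camk4 probes, so it does not read Camk4 mRNA. This probe read 914 against 1058 and 1044 against 820. Its log2 ratio was -0.04 and 0.57, and it is set beside the Camk4 probes without being counted as one.

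Camk2a, which encodes the alpha subunit of CaM kinase II, had an exon-spanning probe for NM_009792 and a second probe for NM_177407 located 23922 bases further downstream on chromosome 18. The upstream Camk2a probe read 359 in TDAG51-/- and 199 in TDAG51+/+ brain, and 380 in TDAG51-/- and 235 in TDAG51-/-Tg2 brain. It was 1.78-fold higher than in TDAG51+/+ (log2 ratio 0.83) and 1.82-fold higher than in TDAG51-/-Tg2 (0.86). The downstream Camk2a probe read 21773 against 62887 and 23807 against 65284, with the control spot saturated on both arrays. It was at least 1.82-fold lower than in TDAG51+/+ (log2 ratio -0.86) and at least 1.70-fold lower than in TDAG51-/-Tg2 (-0.76), and as bounds these values do not place it short of 2-fold.

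The Camk2a probes were therefore on opposite sides of 0 in both comparisons, at least 1.69 and 1.63 apart on the log2 scale, since the downstream control spot was saturated. Their TDAG51-/- channels differed between the arrays by 0.10 and 0.13. The sign of each Camk2a probe was the same under 6 alternative ways of processing. Both TDAG51-/- channels were Cy3 and all processing used the same scans. Neither value thus covers a dye effect of a probe or the spread between dams. The opposite direction of these probes was also part of how the genes were selected. A level of 1 probe cannot be set against that of another, so the data do not say which Camk2a transcripts made up the total.

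Camk2b, which encodes the beta subunit, had 1 symbol-matched probe, for NM_007595 on chr11:5921835-5921894. Its control spot was saturated on both arrays, with 39793 against 65284 and 32007 against 65284. Against TDAG51+/+ the saturated channel was the dimmer one after normalization, and no fold is given. Against TDAG51-/-Tg2 it was at least 1.24-fold lower (log2 ratio -0.32). With median centring the log2 ratio of this probe was -0.56 and -0.84, also affected by saturation.

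The other Camk2b probe, for ENSMUST00000019133, is described as the beta M isoform, and it lies 8049 bases upstream. It read 1836 in TDAG51-/- and 647 in TDAG51+/+ brain, and 2442 in TDAG51-/- and 869 in TDAG51-/-Tg2 brain. It was 3.18-fold higher than in TDAG51+/+ (log2 ratio 1.67) and 3.27-fold higher than in TDAG51-/-Tg2 (1.71), the largest ratio of all 23 probes in each comparison. No spot of this probe was saturated. Both its TDAG51-/- and its control channel were brighter on the second array, by 0.41 and 0.37 on the log2 scale. With the control spot of 1 probe saturated, the exact distance between the Camk2b probes is not known. As a bound, it was at least 1.67 and 2.03 on the log2 scale.

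Camk2d, which encodes the delta subunit, had 5 probes. In the order of transcription, the probe for AK086018 came first and read 399 in TDAG51-/- against 278 in TDAG51+/+ brain and 352 against 211 in TDAG51-/-Tg2 brain, a log2 ratio of 0.61 and 0.89. The AK032524 probe, 8759 bases downstream and with the lowest GC content of the kinase probes at 20%, was near background. The exon-spanning probe A_51_P510817, 25154 bases downstream, read 1831 against 3574 with TDAG51+/+ and 2139 against 2175 with TDAG51-/-Tg2. The log2 ratios were -0.72 and 0.23, so its sign differed between the comparisons.

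The last pair of Camk2d probes lay beyond the exon-spanning one. A_52_P188261, at 33433 bases, read 1520 against 1073 and 2169 against 2119, a log2 ratio of 0.69 and 0.29. The probe for NM_001025439, at 35320 bases, read 29760 against 36434 and 24838 against 37673, a log2 ratio of 0.36 and 0.05, and with median centring its ratio was below 0 in both comparisons (-0.14 and -0.42). On the first array the Camk2d probes thus ranged from -0.72 to 0.69 and on the second from 0.05 to 0.89.

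The difference between the comparisons at Camk2d could be split by channel. In Cy5, scaled between the arrays, TDAG51-/-Tg2 minus TDAG51+/+ was -0.73 for A_51_P510817 and 0.92 for A_52_P188261 on the log2 scale. The TDAG51-/- channels of the same probes differed by 0.22 and 0.52, and 0.52 was the largest such difference among the symbol-matched kinase probes. For the AK086018 probe the Cy5 difference was -0.46, and for the NM_001025439 probe 0.0097. The robust SD of these Cy5 differences was 0.40 over all probes.

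Camk2g, which encodes the gamma subunit, had 1 probe, which read 17786 against 22843 and 19968 against 23253. The Camk2g ratios on the log2 scale were 0.21 and 0.38 after loess, and -0.21 and -0.04 after median centring. No direction is given for Camk2g or for the NM_001025439 probe of Camk2d, since the choice of scaling turned it.

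**Figure D3:**
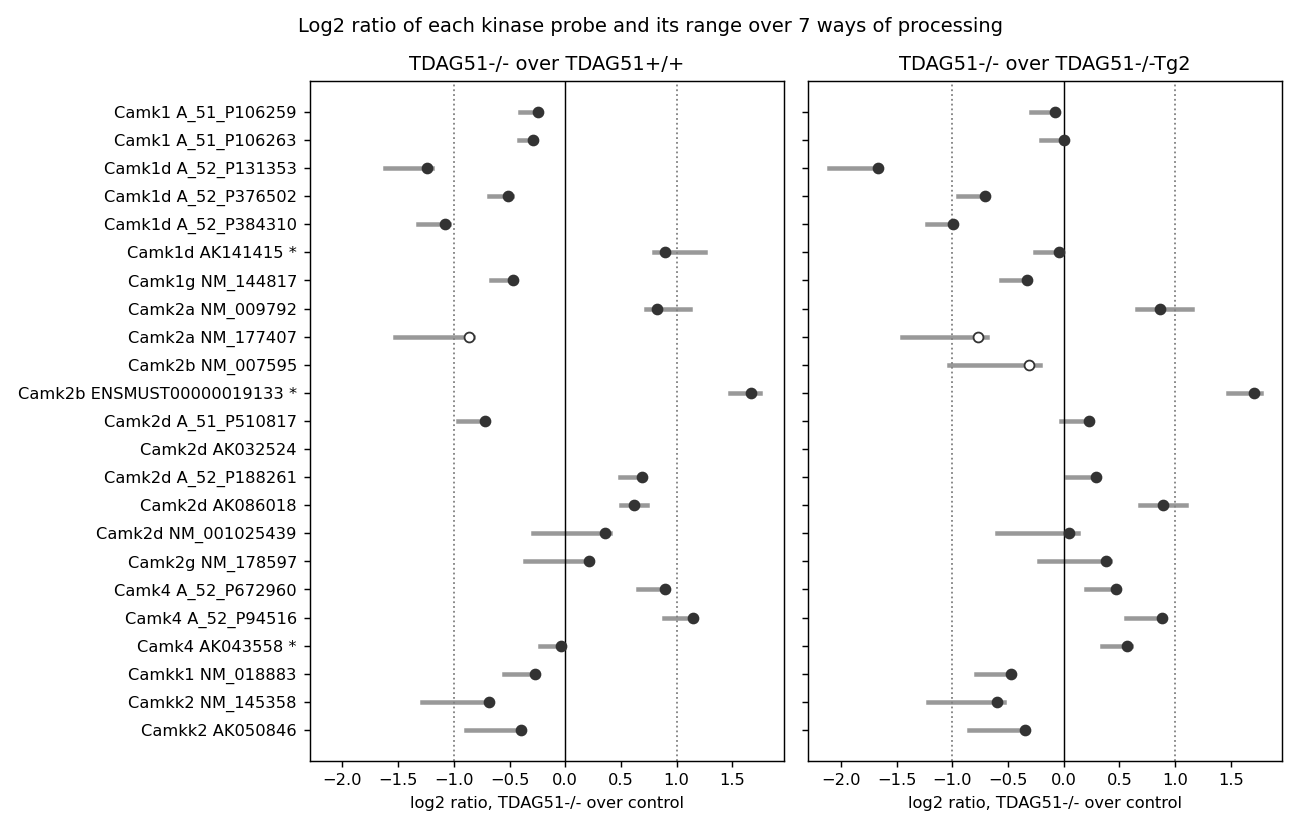
Log2 ratio of TDAG51-/- over TDAG51+/+ (left) and over TDAG51-/-Tg2 (right) for each kinase probe (points), with its range over the processing used and 6 alternatives (grey bars) and the 2-fold threshold (dotted). Open points are lower bounds of the fold (control saturated), asterisks mark probes named by their product, and no point is drawn where both channels were near background or no fold is given; the bars of Camk2g and Camk2d NM_001025439 cross 0 on both sides.

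Of the 6 genes with more than 1 symbol-matched probe above background, 2 (Camk2a and Camk2d) had probes at least 2-fold apart from each other in the comparison with TDAG51+/+. Over all genes with more than 1 such probe, 20.1% did. In the comparison with TDAG51-/-Tg2 it was 1 of the 6 kinase genes (Camk2a), and 18.9% over all genes. Probes of a gene on both sides of 0 were found for 46.9% and 47.9% of all genes. Probes that straddle 0, as those of Camk2a did, were thus common on these arrays, and probes 2-fold apart were less so.

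**Figure D4:**
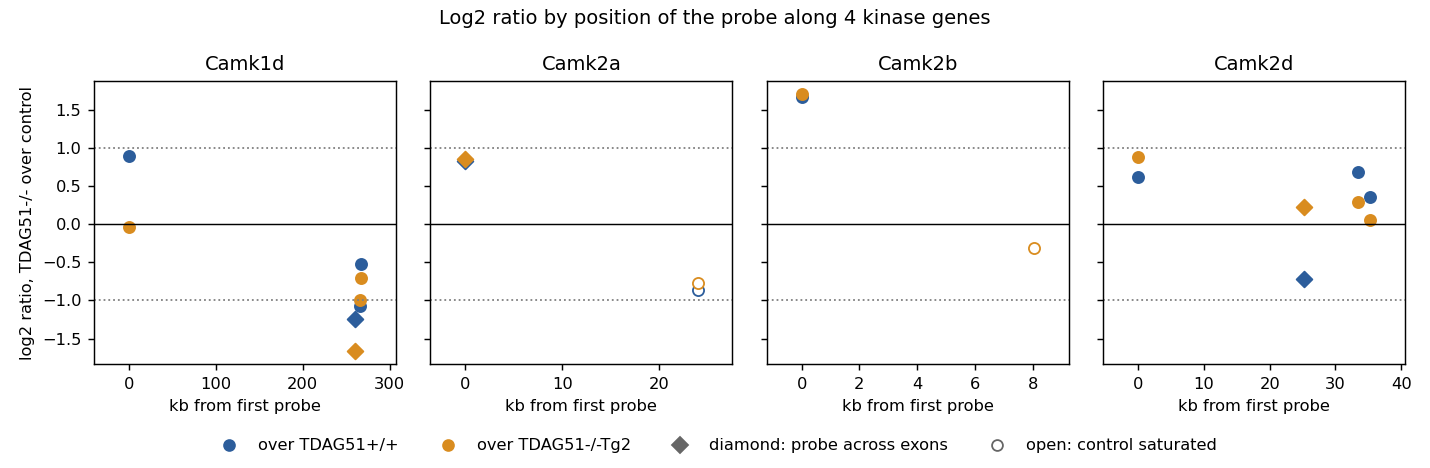
Log2 ratio of TDAG51-/- over TDAG51+/+ (blue) and over TDAG51-/-Tg2 (orange) for each probe of Camk1d, Camk2a, Camk2b and Camk2d, against the distance in kb, along the direction of transcription, from the first probe of the gene. Diamonds are probes split over exons and open circles have a saturated control spot (a lower bound of the fold); the Camk2a probes lie at 0.83 and 0.86 upstream and at -0.86 and -0.76 downstream, and the near-background Camk2d probe and the Camk2b value without a fold are not drawn.

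Only the TDAG51-/- genotype was read on both arrays, and the labels do not say whether its channels held the same RNA. The difference between these channels for the same probe ran from -0.33 to 0.52 on the log2 scale over the 19 kinase probes. Between TDAG51-/-Tg2 and TDAG51+/+, compared through Cy5, the kinase probes ran from -0.73 to 0.92 with a median of -0.01. None of the 19 was 2-fold apart, and 7.11% of all probes were, a share from which a count over 19 probes cannot be told apart. The Cy5 spots of Camk2a NM_177407 and Camk2b NM_007595 were saturated on both arrays. Their differences (0.04 and -0.01) are therefore not measured, and the median is the value of this Camk2b probe. This Cy5 difference, TDAG51-/-Tg2 minus TDAG51+/+, was 0.54 and 0.39 for the Camk4 probes, -0.41 and -0.29 for the Camk1 probes and 0.29 for Camkk1. For the symbol-matched Camk1d probes it was 0.45 (A_52_P131353), 0.24 (A_52_P376502) and -0.16 (A_52_P384310). The TDAG51-/- channels differed by 0.27 and -0.04 for the same Camk4 probes, by -0.24 and 0.01 for the Camk1 probes and by 0.09 for Camkk1.

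The nearest probes to the Camk1d probe A_52_P131353 in both log2 ratios, among 24944 named probes of other genes, were those of Krt9 (-1.27 and -1.65), Shisa9 (-1.25 and -1.63) and Sema4a (-1.22 and -1.70). They lay within 0.045 of it, and 32 probes lay within 0.2. This likeness rests on 2 arrays.

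The calmodulin pathway around the kinases was described with 8 lists of genes, each gene by its brightest probe. Of the calmodulin genes, Calm2 had log2 ratios of -0.89 (TDAG51+/+) and -0.74 (TDAG51-/-Tg2), in the order kept from here on. Calml4, a calmodulin-like gene, was at 1.12 and 0.18. Of the 5 genes above background in this list, 2 were above 0 and 3 below in each comparison, and the second gene above 0 was Calm3, saturated in the control and turned by median centring (-0.30 and -0.39). Camk2n1, which encodes an inhibitor protein of CaM kinase II, had the lowest ratio of its list, with -1.77 and -1.72. Ppm1e, a phosphatase that acts on CaM kinases, was at -0.47 and -0.37.

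Among 16 other calmodulin-regulated or CaM kinase-like kinases, 3 were at least 2-fold higher and 1 lower than in TDAG51+/+, and 2 were higher and 4 lower than in TDAG51-/-Tg2. Of all probes, 4.9% were higher and 4.42% lower in the first comparison, and 4.72% and 3.86% in the second. The death-associated protein kinase family members Stk17b (1.74 and 2.02) and Dapk3 (1.63 and 1.06) were higher in both comparisons, while the doublecortin-like kinase Dclk3 was at -0.92 and -1.18. Of the other substrates of the CaM kinase kinases, Prkaa1, a catalytic subunit of AMP-activated protein kinase, was at 0.76 and 0.64, and Akt1 was at 0.13 and 0.41 after loess but at -0.35 and -0.03 with median centring. No gene of that list of 3 was 2-fold apart.

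Calcineurin is the phosphatase that calmodulin activates, and 6 of its 8 list genes were below 0 in each comparison, where 50.9% and 51.2% of all probes were above 0. The 6 were not the same genes, as Ppp3r2 was at 0.17 and -0.16 and Rcan2 at -0.41 and then above 0. In that second comparison the Rcan2 control spot was saturated, no fold is given, and median centring turned it (-0.29). The calcineurin regulatory subunit Ppp3r1 was at -0.90 and -0.71, the regulator Rcan3 at 0.62 and 0.62, and the catalytic subunit Ppp3ca, with a saturated control spot, at -0.47 and -0.70. The calmodulin-binding proteins of neurons were below 0 in 5 of 6 genes in each comparison, among them Basp1 (-0.52 and -0.73), Pcp4 (-0.52 and -0.30) and Nrgn (-0.29 and -0.52, with a saturated control spot). The gene above 0 was Marcks, whose control spot was saturated and for which no fold is given. No gene of that list was counted as 2-fold apart.

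Of 15 measured CaM kinase substrates and genes of calcium-regulated transcription, 2 were at least 2-fold lower and 0 higher in each comparison, beside 4.42% and 3.86% of all probes lower. The 2 lower genes were the same in both comparisons. These were the transcription factor Mef2c (-1.73, a bound because of a saturated control spot, and -2.09), which is also on the list of cortical markers, and Grin2b (-1.48 and -1.44), which encodes an NMDA receptor subunit that binds CaM kinase II. Crem, a CREB family member, was at -0.72 and -0.43. Of the 6 calmodulin-stimulated cyclases and phosphodiesterases, Pde1b was at -1.22 and -1.07, Pde1c at 1.69 and 0.73, and the adenylyl cyclase Adcy1 at 0.61 and 0.65.

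**Figure D5:**
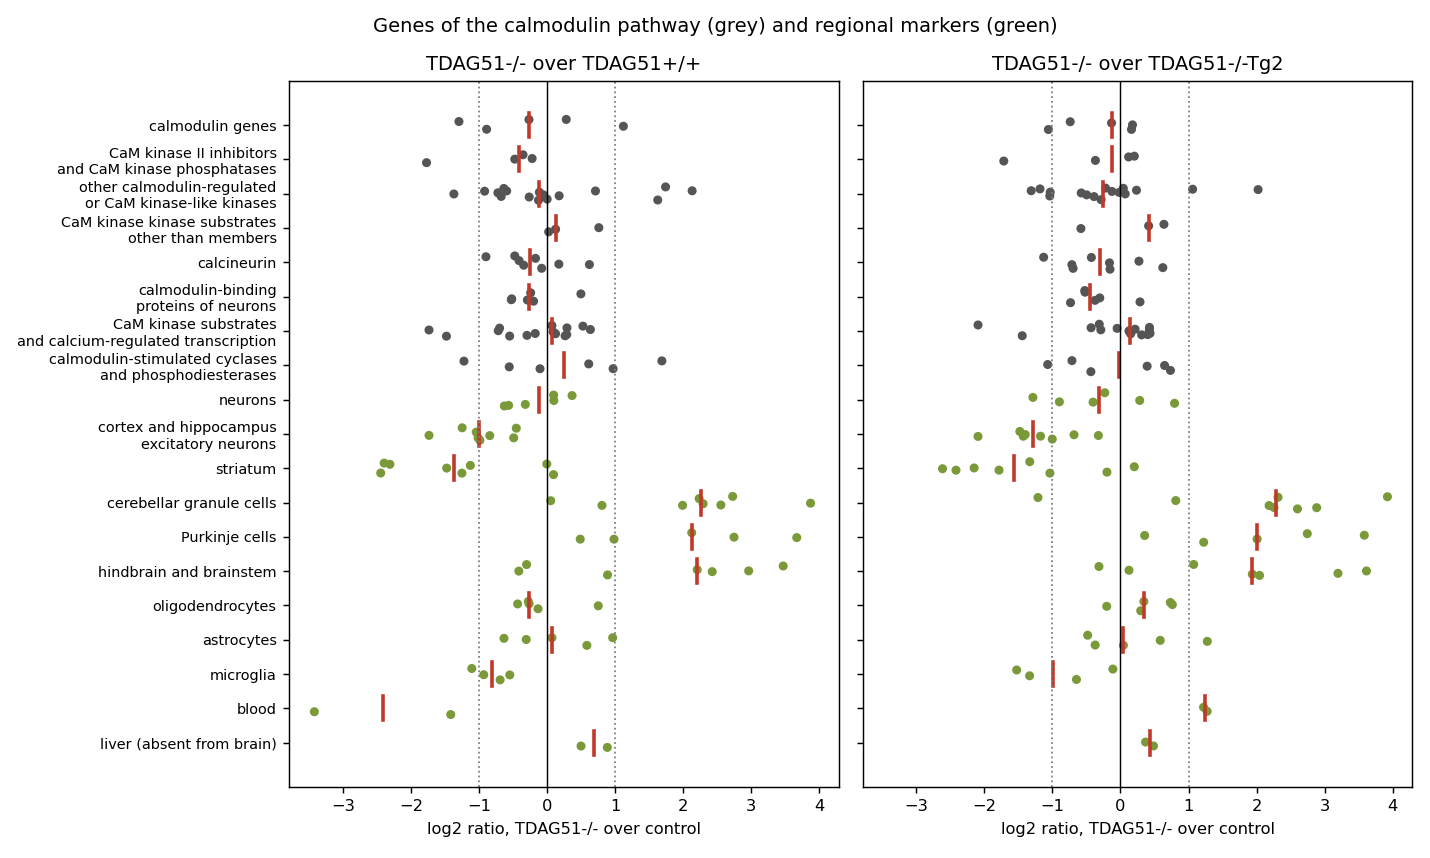
Log2 ratio of TDAG51-/- over TDAG51+/+ (left) and over TDAG51-/-Tg2 (right) for the genes above background of 8 lists of the calmodulin pathway (grey) and of 11 lists of cell type and region markers (green), each gene by its brightest probe; red bars are medians and dotted lines mark 2-fold. Cerebellar, Purkinje cell and hindbrain medians lie between 1.94 and 2.29, and cortical and striatal medians between -1.0 and -1.56.

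Markers of brain regions on the same arrays had ratios on both sides of 0. Of 8 cerebellar granule cell markers, 8 were above 0 against TDAG51+/+ and 7 against TDAG51-/-Tg2, with medians of 2.27 and 2.29, and their summed intensity was 239585 in TDAG51-/- and 105385 in TDAG51+/+ brain, then 237015 in TDAG51-/- and 104655 in TDAG51-/-Tg2 brain. The granule cell receptor subunit Gabra6 was at 3.87 and 3.92. Purkinje cell markers (5 of 5 above 0 in each comparison) had medians of 2.13 and 2.01 and summed intensities of 195827 against 96884 and 200974 against 95715. Hindbrain and brainstem markers (5 and 6 of 7 above 0) had medians of 2.21 and 1.94 and summed intensities of 4806 against 1360 and 4874 against 1485. The summed intensities here and below are before normalization. Saturated TDAG51-/- spots of 2 granule cell genes and 1 Purkinje cell gene cap these sums in each comparison. For the cortical list below, the TDAG51+/+ spot of Mef2c was saturated.

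All 8 markers of excitatory neurons of the cortex and hippocampus were below 0 in each comparison, with medians of -1.0 and -1.29 and summed intensities of 47858 against 155735 and 42690 against 159604. Striatal markers (7 of 8 below 0 in each comparison) had medians of -1.36 and -1.56 and summed intensities of 48226 against 167280 and 46045 against 175037. The pan-neuronal list had a median of -0.11 and -0.32 (-0.49 and -0.69 with median centring), and microglial markers one of -0.81 and -0.99 (4 of 4 below 0). Oligodendrocyte markers were at -0.26 and 0.34 (-0.58 and 0.18 with median centring) and astrocyte markers at 0.07 and 0.04 (both -0.20 with median centring). The 2 blood genes measured had medians of -2.42 and 1.25. Of 3 liver genes, Alb was not above background, while Ttr, which the choroid plexus also expresses, was at 0.89 and 0.48 and Apoa1 at 0.50 and 0.37.

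The part of these regional markers in the ratios of the kinases was not tested. In whole-brain RNA, fewer cells of a type in the sample and less RNA per cell cannot be told apart. Camk4, known for its level in granule cells, was higher together with the granule cell markers, and the downstream Camk2a probe and Camk2n1 were lower together with the markers of cortex and hippocampus. The upstream Camk2a probe and the Camk2b probe for ENSMUST00000019133 were higher on the same arrays.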

How the data were processed

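Whole-brain RNA was measured on 2 two-colour arrays of 1 slide, grouped by the labels. The authors deposited scanner files (Agilent Feature Extraction 9.5.3.1) that hold mean and median background intensity per spot, flags for saturation and background, a log10 ratio of Cy5 over Cy3 and an error model p-value. The authors also deposited a log2 ratio, with medians of -0.011 and -0.0087, whose scale and direction (TDAG51-/- over control) were set by its match to the scanner ratio (r = 0.98). How that ratio was normalized is not given in the sources used here. Probe coordinates are those of the deposited output (mm7).

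Control spots and outlier spots (375 and 300) were dropped. Background was corrected by normexp with an offset of 50, followed by loess within each array and averaging by probe (limma 3.58.1, R 4.3.3, and data.table, version 1.17.8). Well above background means flagged so by the scanner in at least 1 channel. A fold is a lower bound where its brighter channel was saturated. Channels were compared between arrays after Aquantile. Python 3.11.15, numpy 2.4.6, pandas 2.3.3 and matplotlib 3.10.9 were used for tables and figures. The steps were tested on simulated data. Median intensities (Cy3 and Cy5) were 325 and 348, then 322 and 368. With so few arrays precision is limited, and no test was possible.

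The kinases, the 8 pathway and 11 marker lists and all choices were made with earlier results of these data known. Named genes were all kinase probes, Phlda1, up to 3 genes of each pathway list with the largest smaller ratio of both comparisons in the same direction, and the 3 probes nearest to the leading kinase probe. The result of 1 list gene is not reported here, though counts include it. Marker examples (Gabra6, Hba-a1, Alb, Ttr and Apoa1), the saturated Calm3 and Marcks, and Rcan2 and Ppp3r2 were chosen after their values were seen. Other gene names came from the array and from a gene table (GRCm38.p6), matched by accession (22913 probes), symbol (6693) or synonym (3140), with 8358 unmatched. Promoter sequences were not used here.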

Additional observations from a re-analysis of the deposited data

How the results depend on the processing

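No value reversed past the 2-fold threshold under any alternative. No paired analysis was possible because each comparison was made on 1 array and no result comes from a test. The counts moved as follows. The count of probes past 2-fold above TDAG51+/+ (1) became 2 with offset 0, with the scanner ratio and with the deposited ratio, and was 0 without normalization and 5 at a 1.5-fold threshold. Probes lower than in TDAG51+/+ (2) were 4 with median centring or no normalization and 5 at 1.5-fold. Against TDAG51-/-Tg2, probes higher (0) were 2 with offset 0 and with the scanner or deposited ratio, and 3 at 1.5-fold. Probes lower than in TDAG51-/-Tg2 (1) were 2 with offset 0, no background subtraction and the scanner or deposited ratio, 4 with median centring, 5 without normalization and 5 at 1.5-fold. Genes with probes 2-fold apart were 1 against TDAG51+/+ (2 in the processing used) and 0 against TDAG51-/-Tg2 (1) without saturated probes. Against TDAG51+/+ they were 3 at 1.5-fold. Against TDAG51-/-Tg2 they were 3 with offset 0, the deposited ratio or a 1.5-fold threshold, and 2 with median centring, no normalization or the scanner ratio. Counting the 3 probes named by product, chosen after seeing the data, gave 2 and 1 higher probes and 5 and 3 genes with probes apart. Camk4 is among the 5 only through the opposite-strand probe for AK043558, which does not read its mRNA. Camk2b is also among them, although no fold is given for its symbol-matched probe against TDAG51+/+. The causes were not tested. Of the symbol-matched probes with a ratio, 16 of 18 against TDAG51+/+ and 15 of 19 against TDAG51-/-Tg2 had the same sign under 6 alternatives. The exceptions were Camk2g and Camk2d NM_001025439 in both, and Camk1 A_51_P106263 and Camk2d A_51_P510817 against TDAG51-/-Tg2 alone. Saturation of the control spots limits the Camk2a NM_177407 and Camk2b NM_007595 ratios.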
